A study of Mus musculus with 10 samples.

Results

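Cytosolic ribosomal protein genes encode the protein components of the ribosomes that translate nuclear mRNAs. All protein-coding genes of the GENCODE M1 annotation (mouse build mm9) whose name is Rpl or Rps followed by a number, with or without the endings a, x, l or y, were taken, together with Rplp0 to Rplp2 and Rpsa. This gave 80 of 22359 protein-coding genes, 48 of the large subunit and 32 of the small subunit. Kinases named Rps6k and genes named as pseudogenes were left out. The peak lists came from ChIP-Rx, which is ChIP-seq with a spike-in, on mCherry-positive cells sorted at day 4 from embryoid bodies (EBs), aggregates of differentiating mouse embryonic stem (ES) cells. The WT line, Scl:mCherry, was a clone of J1 ES cells in which 1 Scl allele carried an mCherry reporter and SCL was functional. The Delta line, Scl Δ/Δ:mCherry, was engineered from that line and had lost from both alleles the domain (basic helix-loop-helix) with which SCL contacts DNA and its partners, so both genotypes shared the reporter and the sort. SCL (TAL1) is a transcription factor needed to make blood. Cells of the Drosophila line S2 had been added to all samples as the spike-in, which was not applied to the peak calls. There was 1 library for each of 4 marks in each genotype, so every difference below is between 2 libraries, none has a replicate check and no test was possible.

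A ribosome is built from ribosomal RNA and a fixed set of proteins that are needed in equal amounts, and the genes for these proteins are scattered over the genome and are highly transcribed in growing cells. They are short, many carry small nucleolar RNAs (snoRNAs) in their introns, and their mRNAs begin with a run of pyrimidines, the 5′ terminal oligopyrimidine (TOP) element, through which growth signals control translation. H3K4me3 and H3K27ac mark active promoters. H3K27me3 and H2AK119ub are laid down by Polycomb complexes, and are best known at silenced developmental genes. Loss of 1 copy of several of these genes causes Diamond-Blackfan anaemia, in which red cell precursors fail.

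The start sites of these genes are shown first, because the position of the peaks is read against them. RefSeq promoters were matched by symbol for 59 of the 80 genes, and all 59 were placed on mm9 by a single exact match of 300 bases. The main transcription start site (TSS) of GENCODE M1 was the start used by the largest number of coding transcripts of a gene. Where starts tied, the most upstream was taken, and 36 of the 80 genes had only 1 coding start. The main TSS lay a median of 3 bp from the nearest RefSeq start. It was within 50 bp in 44 of 59 genes, but up to 7672 bp away. A TOP run, C followed by C or T for at least 5 bases and starting within 5 bases of the RefSeq start, was found in 28 of 59 genes (47.5%) against 21.2% of 27025 RefSeq genes. A run of at least 8 bases was found in 20 (33.9%) against 5.17%. At the main TSS of GENCODE M1 the share with at least 5 bases was only 21.3% of 80 genes against 17.8% of all coding promoters, and in the 59 genes with a RefSeq promoter it was 22.0%, so the share depended on which annotated start was used. At that site it was 25% of mitochondrial ribosomal protein genes and 35% of translation factor genes, which are compared further below. Of the longest runs at a RefSeq start, 6 are printed below. They are followed by the paralogs Rpl10l, Rpl39l and Rpl3l, which had no such run at the RefSeq start. At the main TSS of GENCODE M1, Rpl39l had a run of 7 bases. Each line gives the 30 bases before the RefSeq start and the 20 from it onward, 5′ to 3′ on the coding strand, with the TOP run in capitals.
Rpl27a (chr7:116662679-116662728, plus strand): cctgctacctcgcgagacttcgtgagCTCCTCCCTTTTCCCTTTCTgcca
Rpl15 (chr14:19103481-19103530, minus strand): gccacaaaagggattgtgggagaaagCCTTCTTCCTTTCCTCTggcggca
Rpl35 (chr2:38860632-38860681, minus strand): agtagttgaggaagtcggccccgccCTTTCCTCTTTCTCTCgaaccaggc
Rpl13a (chr7:52384096-52384145, minus strand): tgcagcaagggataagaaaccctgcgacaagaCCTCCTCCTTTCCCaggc
Rpl35a (chr16:33056538-33056587, plus strand): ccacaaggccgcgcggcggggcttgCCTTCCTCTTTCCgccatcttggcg
Rps10 (chr17:27772170-27772219, minus strand): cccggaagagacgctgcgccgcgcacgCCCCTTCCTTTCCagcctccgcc
Rpl10l (chr12:67385369-67385418, minus strand): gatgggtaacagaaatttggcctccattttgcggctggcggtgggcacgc
Rpl39l (chr16:10170291-10170340, plus strand): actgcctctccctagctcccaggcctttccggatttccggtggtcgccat
Rpl3l (chr17:24864741-24864790, plus strand): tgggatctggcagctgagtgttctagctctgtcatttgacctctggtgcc
In the 6 genes printed with a run, the summed H3K4me3 length ran from 2524 bp to 5495 bp in WT, and all 6 had an H3K27ac and an H3K27me3 peak in WT. The 3 paralogs had no peak in any list.

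Over the 300 bases from 250 before to 50 after the main TSS, the 80 genes had a median GC content of 55.3%, the same as all 22342 coding promoters read. Their median ratio of observed to expected CpG was 0.844 against 0.538. The ETS motif CCGGAAG, searched on both strands as were all motifs, was present in 30% against 10.8%, and the YY1 motif AAGATGGC in 6.25% against 3.33%. The E-box CANNTG, which the helix-loop-helix domain of SCL binds, was present in 53.8% against 69.4%, and the GATA motif AGATAA in 6.25% against 10.3%. The TATA box TATAAA was present in 11.3% against 13.5% and the GC box GGGCGG in 47.5% against 44.0%. The ETS motif, at 35.5% of mitochondrial ribosomal protein genes and 30% of translation factor genes, was not particular to ribosomal protein genes. Nor was the YY1 motif, at 15.8% and 8.33% of them. The E-box was also below the share of all promoters in these lists, at 60.5% and 58.3%, and the GATA motif was present in 15.8% and 1.67%. These are matches of letters and say nothing of binding.

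The 8 lists held 70826 peaks, from 2388 to 16038 per list, and read depth cannot be derived from them. The labelled cell type was checked at marker promoters. Of 6 haemangioblast markers, 3 (Lmo2, Gata2 and Fli1) had H3K27ac in WT and none had it in Delta. The 4 cardiac and paraxial markers, the 2 neural, the 3 endoderm and the 3 pluripotency markers found in the annotation had H3K27ac in neither genotype. Peaks at haemangioblast markers thus differed between the genotypes, and whether the makeup of the sorted cells had a part in the results below was not tested.

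To ask which marks lie at ribosomal protein genes, a gene was said to carry a mark if a peak reached to 2500 bp or less from any coding TSS. H3K4me3 was present at 77 of 80 genes in WT and at 77 in Delta (96.3%, 95% Wilson interval 89.5 to 98.7, which like all intervals here covers counting error only), against 60.7% and 60.3% of all protein-coding genes. H3K27ac was present at 71 in WT (88.8%, 79.98 to 94.0) and 73 in Delta (91.3%, 83.0 to 95.7), against 19.9% and 22.8%. H3K27me3 was present at 68 in WT (85.0%, 75.6 to 91.2) and 59 in Delta (73.8%, 63.2 to 82.1), against 34.8% and 32.7%. H2AK119ub was present at none in either genotype, which allows a share of up to 4.58%, against 9.21% and 5.0%. If a peak had to cover a coding TSS itself, H3K27ac was counted at 37 and 36 genes and H3K27me3 at 22 and 18. Over all genes with H3K4me3 and H3K27me3 together, 23.6% in WT and 14.9% in Delta had H2AK119ub. Among the other genes with H3K4me3 and H3K27ac it was 2.78% and 1.01%, which lies within the interval above. The lack of a listed peak is thus not particular to ribosomal protein genes. Listed H2AK119ub peaks were mostly near the calling limit. Of all genes with one, 58 of 2060 in WT and 32 of 1118 in Delta reached a −log10 q of 3. The paper describes this mark over large domains around start sites, so the lack of a listed peak does not show that the mark was absent. Listed peaks of both active marks and of H3K27me3 were thus more frequent at ribosomal protein genes than at coding genes at large. The H3K27me3 peaks were short, as described below. Their fold enrichment had a median percentile of 46.1 in WT and 35.8 in Delta among all genes with the mark. Whether they are weak enrichment over open chromatin was not tested.

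The combination of H3K4me3, H3K27ac and H3K27me3 was the most frequent state. It was found at 63 genes in WT (78.8%, against 10.1% of all genes) and 59 in Delta (73.8%, against 9.97%), and 53 genes had it in both. H3K4me3 with H3K27ac and no H3K27me3 was found at 8 genes in WT (10%, against 9.09% of all genes) and 14 in Delta (17.5%, against 12.4%). H3K4me3 with H3K27me3 and no H3K27ac was found at 5 genes in WT (6.25%, against 14.6% of all genes) and at none in Delta (against 15.6%). The shares of all genes with a state are those without H2AK119ub. Among genes with both H3K4me3 and H3K27me3, H3K27ac was thus present at 63 of 68 in WT and 59 of 59 in Delta, against 32.5% and 33.9% of all such genes. The nearest H2AK119ub peak to any main TSS was 3182 bp away in WT, at Rps15. Such a peak lay within 10 kb of 6 genes in WT and 3 in Delta, of 76 genes on chromosomes that held any, against 12.1% and 6.39% of all genes there.

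**Figure D1:**
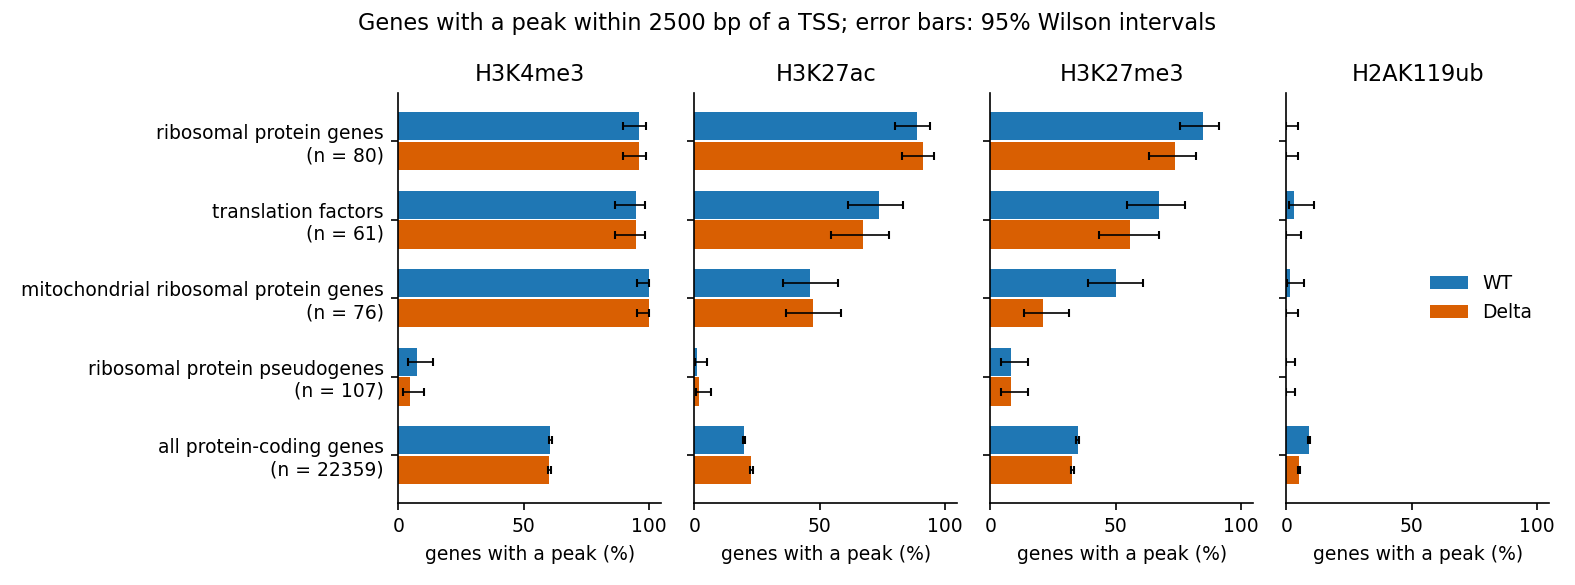
Share of genes (%, horizontal axis) with a peak within 2500 bp of a TSS for 4 marks in WT (blue) and Delta (orange), with 95% Wilson intervals as error bars. For H3K27me3 the ribosomal protein genes stood at 85.0% and 73.8%, above translation factors, mitochondrial ribosomal protein genes and all protein-coding genes.

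Related genes were compared through lists made by name. The list of translation factors held 61 genes named as initiation or elongation factors. The names also took in the Argonaute genes Eif2c1 to Eif2c4, the binding proteins Eif4ebp1 to Eif4ebp3 and Eif4enif1, which are not such factors. Of the 61, 58 had H3K4me3 in each genotype. H3K27ac was present at 45 in WT and 41 in Delta, and H3K27me3 at 41 in WT and 34 in Delta. The 76 genes for mitochondrial ribosomal proteins, which serve the separate ribosomes of that organelle, all had H3K4me3 in both genotypes. Fewer of them had H3K27ac (35 and 36) and H3K27me3 (38 and 16). Of 6 further genes of the cytosolic ribosome that the naming rule misses, all had H3K4me3, and 5 had H3K27me3 in WT and 3 in Delta. They include Fau, which encodes a ribosomal protein fused to a ubiquitin-like protein, and Gnb2l1, the scaffold protein RACK1. Their H3K27me3 lengths in WT and Delta were 890 bp and 877 bp at Fau, and 1454 bp and 1321 bp at Gnb2l1. Of the 10 Rps6k kinase genes, which share only part of the name, 9 and 10 had H3K4me3, but 1 and 2 had H3K27ac and 3 and 2 had H3K27me3.

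Ribosomal protein pseudogenes, mostly processed copies of the mRNAs, largely lacked the marks. Of 107 annotated as pseudogenes, 8 had H3K4me3 in WT and 5 in Delta, 9 had H3K27me3 in each and none had H2AK119ub. A further 55 genes with a pseudogene name are typed as protein-coding in GENCODE M1. Of these, 1 had H3K4me3 in each genotype and none had another mark. Reads had been kept only where they mapped to 1 place, so exon reads shared with such copies could be missing from the genes as well, and this was not tested.

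The 3 genes without any peak were all paralogs of widely used members. Rpl3l is known as a paralog of Rpl3 used in muscle, and Rpl10l and Rpl39l as testis paralogs of the X-linked Rpl10 and Rpl39. The fourth gene of this kind, Rps27l, a target of p53, had H3K4me3 of 2528 bp in WT and 1568 bp in Delta, H3K27ac of 789 bp and 224 bp, and no H3K27me3. Besides these paralogs, 4 genes had H3K27me3 in neither genotype. They were Rpl21, Rpl36a, Rps27 and Rps29, and all had H3K4me3 in both.

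H3K4me3 peaks were long and highly enriched at ribosomal protein genes. Where several peaks reached a gene their lengths were summed. The summed length had a median of 2652 bp in WT (range 1367 to 5796) and 2194 bp in Delta (1153 to 5408), against 1588 bp and 1447 bp over all genes with the mark. Fold enrichment over local background, as given by the peak caller, had a median of 10.03 in WT and 8.50 in Delta, and the genes' median percentile among all genes with H3K4me3 was 87.6 and 86.2. By length, 60 of 77 genes were in the upper 25% of marked genes in WT and 48 in Delta. Every one of the 77 kept its H3K4me3 at a −log10 q of at least 3 in both genotypes. Most marked genes did so too, 13120 of 13561 in WT and 12907 of 13477 in Delta.

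Rps2, Rpl35 and Rps15a were among the 4 longest sums in WT. Rps2, near the entry of the mRNA channel, had a single peak of 5796 bp in WT (chr17:24855529-24861324) and of 5408 bp in Delta. Rpl35 had 5495 bp and 4463 bp, of which 2426 bp and 1576 bp lay wholly upstream of the gene, on the side of Arpc5l. Rps15a had 4926 bp and 3701 bp. The long values were thus in part those of shared promoters, and the 16 genes with another coding TSS within 2500 bp had a median of 3730.5 bp in WT against 2577 bp in the other 61.

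The 4 shortest belonged to Rpl21, Rps29, Rpl36a and Rpl36. Rpl21 had 1367 bp in WT and 1896 bp in Delta. Rps29, which lies in the head of the small subunit, had 1427 bp and 1153 bp. Rpl36a had 1619 bp and 1403 bp, and Rpl36 1633 bp and 1462 bp. Of these 4, only Rpl36 had H3K27me3, and its length was 745 bp in WT against 292 bp in Delta. The 30 genes that host snoRNAs, 58 snoRNAs in all, had a median H3K4me3 length of 3026.5 bp in WT and 2354 bp in Delta, against 2621 bp and 2159 bp in the 47 marked genes without them.

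Because the genes are short, with a median of 3243 bp for the 77 marked genes against 24274 bp for all genes with H3K4me3 in WT, a long peak takes up much of the gene. The H3K4me3 peaks of a gene together covered a median of 68.0% of the gene body in WT and 55.8% in Delta, against 4.08% and 3.80% over all marked genes. A peak ran past the 3′ end of 12 genes in WT and of 6 in Delta. This was 15.6% and 7.79%, against 1.84% and 1.42% of all marked genes. From the main TSS the longest peak extended a median of 446 bp upstream and 2186 bp downstream in WT, and 385 bp and 1817 bp in Delta. Over all marked genes the extents were 436 bp and 1058 bp in WT, so the added length lay downstream.

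**Figure D2:**
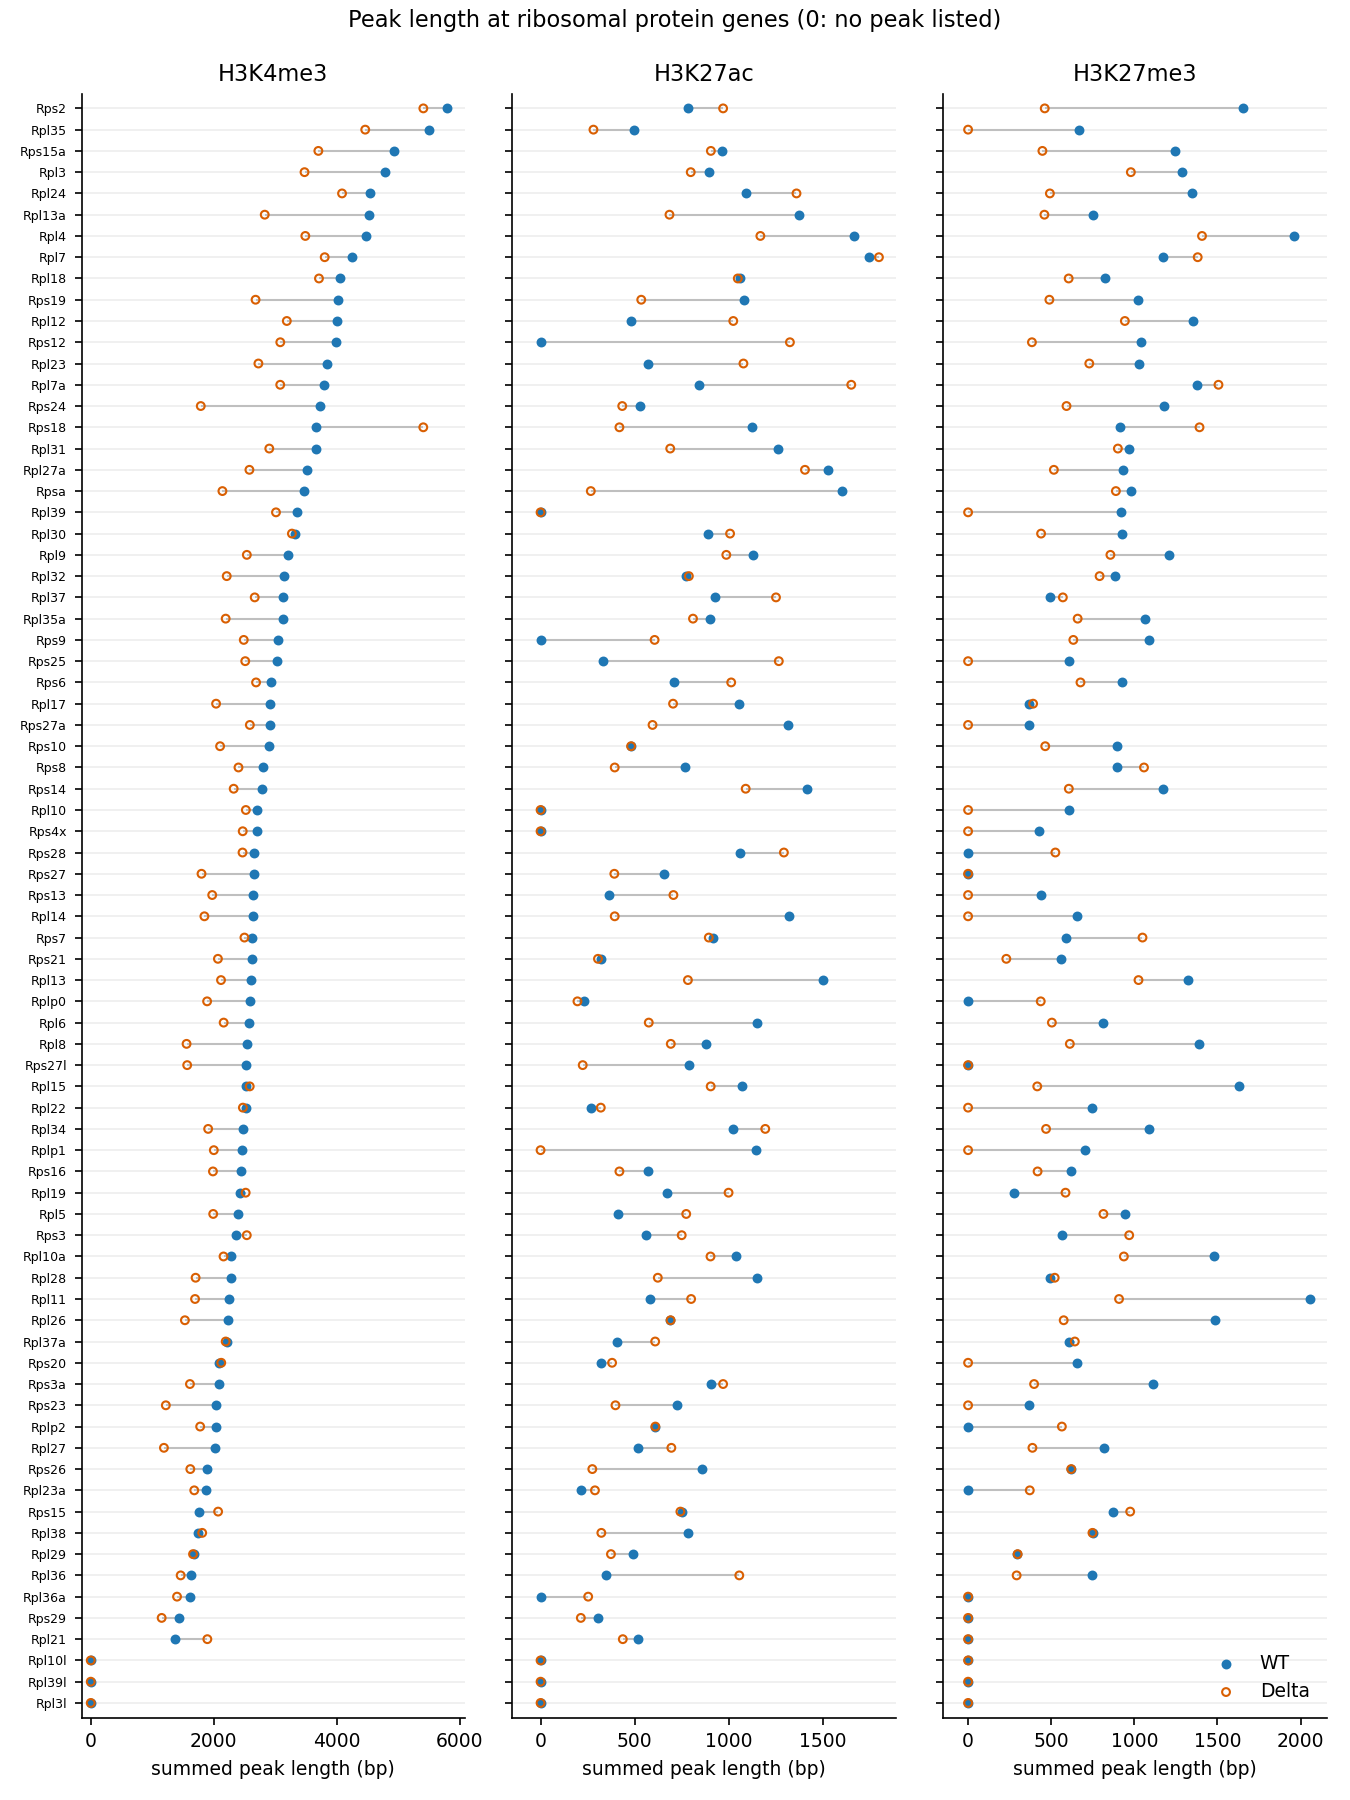
Summed peak length (bp, horizontal axes) of H3K4me3, H3K27ac and H3K27me3 at 76 of the 80 genes (rows, ordered by WT H3K4me3), in WT (filled blue) and Delta (open orange), with 0 where no peak was listed. H3K4me3 was shorter in Delta at 69 of 77 genes, while the order of the H3K27ac pairs varied from gene to gene.

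H3K27ac peaks were shorter and sat just past the start. The median summed length was 789 bp in WT (range 215 to 1745) and 706 bp in Delta (196 to 1798), against 574 bp and 581 bp over all genes with the mark. The longest peak of a gene began a median of 74 bp and ended 723 bp past the main TSS in WT, and 104 bp and 697 bp in Delta. The 4 longest in WT were at Rpl7 (1745 bp in WT and 1798 bp in Delta), Rpl4 (1668 bp and 1168 bp), Rpsa (1600 bp and 267 bp) and Rpl27a (1529 bp and 1405 bp). Rpl4 lines the exit tunnel of the ribosome, and Rpsa is also known as a laminin receptor.

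The H3K27me3 peaks at ribosomal protein genes were short and lay within the H3K4me3 peak, downstream of the start. The median summed length was 888.5 bp in WT (range 274 to 2054) and 605 bp in Delta (230 to 1506), against 1725 bp and 1980 bp over all genes with the mark. No single peak was longer than 2000 bp in either genotype, whereas 45.6% and 48.8% of all genes with H3K27me3 had one. The longest peak began past the main TSS at 60 of 68 genes in WT and 55 of 59 in Delta, with median positions of 107 bp to 917 bp and 136 bp to 876 bp past it. It covered the main TSS at 6 genes in WT (8.82%) and 4 in Delta (6.78%), against 48.3% and 48.9% over all genes with the mark. It lay wholly inside an H3K4me3 peak at 66 of 68 and 59 of 59 genes, and overlapped H3K27ac at 61 of 68 and 58 of 59, against 27.1% and 27.4% over all genes.

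Against the RefSeq starts most H3K27me3 peaks still began past the start. For the 50 genes with H3K27me3 in WT and a RefSeq start, the peak began a median of 72.5 bp past it and ended 884 bp past it, and 39 of 50 began past it. In Delta 41 of 44 did, from a median of 110 bp to 725.5 bp. The WT peak covered the RefSeq start at 9 of the 50 genes, against 5 of the same genes for the main TSS. In Delta it was 3 of 44 with either start. At Rpl27a, whose sequence is printed above, H3K27me3 lay 92 bp to 1021 bp past the start in WT and 65 bp to 580 bp in Delta. At Rps10 it lay 46 bp to 938 bp and 36 bp to 499 bp past it. At Rpl15 the WT peak reached from 431 bp before the start to 1197 bp past it, and the Delta peak from 97 bp to 512 bp past it.

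**Figure D3:**
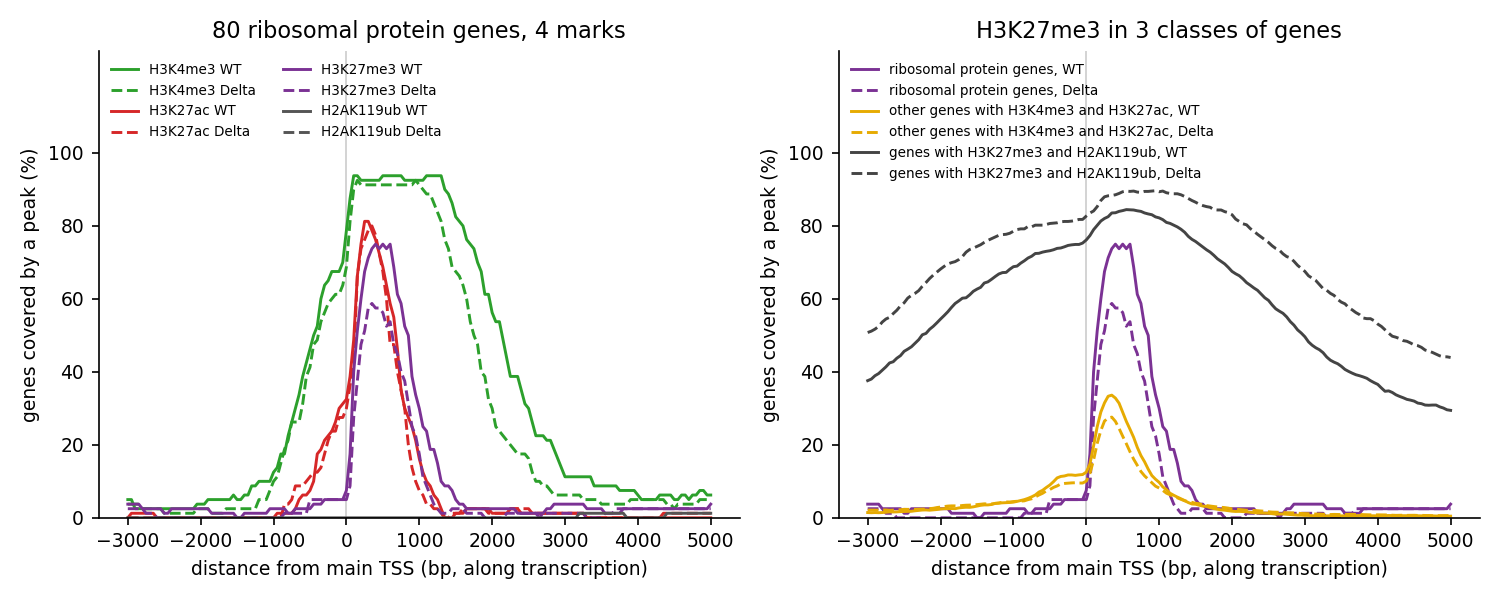
Left, share of the 80 ribosomal protein genes (%, vertical axis) covered by a peak of each mark at each distance from the main TSS (bp, horizontal axis), in WT (solid) and Delta (dashed). Right, the same for H3K27me3 in 3 classes of genes, where ribosomal protein genes peaked at 75% in WT and 58.8% in Delta just past the start and stood at 7.5% and 5% at the TSS, unlike genes with H3K27me3 and H2AK119ub.

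These H3K27me3 peaks were set beside those of 2 other classes. Among the other genes with H3K4me3 and H3K27ac, 52.7% of 4349 in WT and 44.5% of 5000 in Delta had H3K27me3. Their longest peaks had medians of 615 bp and 566.5 bp, began a median of 98 bp and 104 bp past the main TSS, covered it in 23.4% and 22.3%, and overlapped H3K27ac in 89.6% and 87.4%. Genes with H3K27me3 and H2AK119ub numbered 1854 in WT and 1081 in Delta. Their peaks had medians of 5373.5 bp and 7534 bp, covered the main TSS in 74.2% and 81.0%, and overlapped H3K27ac in 3.29% and 2.31%. In length and position the ribosomal protein genes were nearer to the first class, whose overlap with H3K27ac is largely set by how it was chosen. Median fold enrichment was 3.82 in WT and 3.74 in Delta at ribosomal protein genes, 3.43 and 3.52 in the first class, and 6.54 and 7.92 in the class with H2AK119ub. At a −log10 q of at least 3, 56 of 68 genes in WT and 41 of 59 in Delta still had the mark. Over all genes with H3K27me3 the counts were 5281 of 7791 and 5166 of 7313, and in the first class 1105 of 2291 and 1083 of 2224. Whether H3K27me3 and H3K27ac lay on the same chromosomes or in different cells of the sort cannot be told apart in these lists.

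Rpl11 had the largest H3K27me3 sum, 2054 bp in WT and 908 bp in Delta, but 1243 bp of the WT value was a separate peak wholly upstream of the gene. The peak in the gene was 811 bp long in WT and 908 bp in Delta. Rpl11 forms, with Rpl5 and a small ribosomal RNA, a particle that can bind the p53 regulator Mdm2. Rpl5 had 945 bp and 814 bp. The longest single peak was at Rpl4, with 1960 bp in WT (chr9:64020105-64022064) and 1407 bp in Delta. Rps2 followed with 1656 bp and 461 bp, and Rpl15 with 1629 bp and 416 bp.

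To compare the genotypes, the summed length in Delta was divided by that in WT at genes with a peak in both. For H3K4me3 the ratio had a median of 0.816 (quartiles 0.734 and 0.919, n = 77), and 69 of 77 genes (89.6%) were shorter in Delta against 67.1% of all genes. Over all genes the median was 0.928, over 3596 other genes with H3K4me3 and H3K27ac in both genotypes 0.918, over mitochondrial ribosomal protein genes 0.918 and over translation factors 0.842. The large and small subunits had medians of 0.814 and 0.819. No gene had H3K4me3 in WT or in Delta alone, against 1.06% and 0.684% of all genes. H3K4me3 in Delta was below the WT length by more than 1.5-fold at 9 genes (11.7%, against 9.86% of all genes) and above it by more than 1.5-fold at none (against 2.98%). The lower median was thus spread over many genes with small differences.

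Of the 9 genes past 1.5-fold, 8 are given here. Rps24 had 3723 bp in WT and 1789 bp in Delta (ratio 0.481). Rpl27 had 2025 bp and 1190 bp (0.588), and Rps23, at the decoding centre, 2040 bp and 1221 bp (0.599). Rpl8 had 2545 bp and 1558 bp (0.612), and Rpsa 3472 bp and 2141 bp (0.617). The p53 target Rps27l had a ratio of 0.620. Rpl13a had 4528 bp and 2829 bp (0.625), and Rps19 4026 bp and 2680 bp (0.666). Of the 8 genes that were longer in Delta, Rps18 had 3670 bp and 5407 bp (1.47) and Rpl21 a ratio of 1.39. The Delta peak of Rps18 (chr17:34088275-34093681) ran past the 3′ end of the gene.

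H3K27ac lengths differed in both directions. The ratio had a median of 0.909 (quartiles 0.673 and 1.22, n = 70) against 1.02 over all genes, and 41 genes were shorter in Delta (58.6%, against 48.1% of all genes). Past 1.5-fold, 18 were shorter (25.7%, against 19.1%) and 7 longer (10%, against 23.4%). The largest ratios were at Rps25, where it measured 330 bp in WT and 1266 bp in Delta (3.84), Rpl36, with 346 bp and 1056 bp (3.05), Rpl12, with 483 bp and 1024 bp (2.12), and Rpl7a, with 844 bp and 1651 bp (1.96). The smallest were at Rpsa (0.167), Rps27l (0.284), Rpl14, with 1320 bp and 394 bp (0.298), and Rps26, with 859 bp and 275 bp (0.320). H3K27ac was listed only in WT at Rplp1 (1144 bp; 3.43% of all genes had it in WT alone). It was listed only in Delta at Rps12 (1325 bp), Rps9 (606 bp) and Rpl36a (253 bp), against 6.37% of all genes.

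H3K27me3 showed the lowest ratio of the 3 marks. The median was 0.709 (quartiles 0.478 and 1.02, n = 55), against 1.01 over all genes and 0.934 over the other genes with H3K4me3 and H3K27ac in both genotypes. Delta was shorter at 39 of 55 genes (70.9%, against 48.6% of all genes), by more than 1.5-fold at 25 (45.5%, against 14.8% of all and 27.8% of the other active genes), and longer by more than 1.5-fold at 4 (7.27%, against 13.5%). The 4 were Rpl19 (274 bp in WT and 586 bp in Delta), Rps7 (587 bp and 1049 bp), Rps3 (564 bp and 969 bp) and Rps18 (913 bp and 1392 bp). With only the peaks that overlap the gene, an alternative chosen after the data were seen, the median was 0.718 and 37 of 55 genes were shorter in Delta. Of 53 genes with all 3 ratios, 19 were shorter in Delta for all 3 marks and 2 were longer for all 3.

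H3K27me3 was listed in WT alone at 13 genes (16.3% of 80, against 7.04% of all genes). As a share of the genes with the mark in WT this was 19.1%, against 20.2% over all genes and 36.1% over the other active genes, so a missing Delta peak was not more frequent here. They included Rpl10, Rpl14, Rpl22, Rpl35, Rpl39, Rplp1, Rps4x, Rps13, Rps20, Rps23, Rps25 and Rps27a, which encodes a fusion with ubiquitin. The WT peaks of the 13 were short and weak, with lengths of 365 bp to 920 bp (median 654 bp), and 6 of 13 reached a −log10 q of 3, against a median of 930 bp and 50 of 55 where the mark was in both. H3K27me3 was listed in Delta alone at Rpl23a (371 bp), Rplp0 (437 bp), Rplp2 (564 bp) and Rps28 (525 bp), against 4.91% of all genes.

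**Figure D4:**
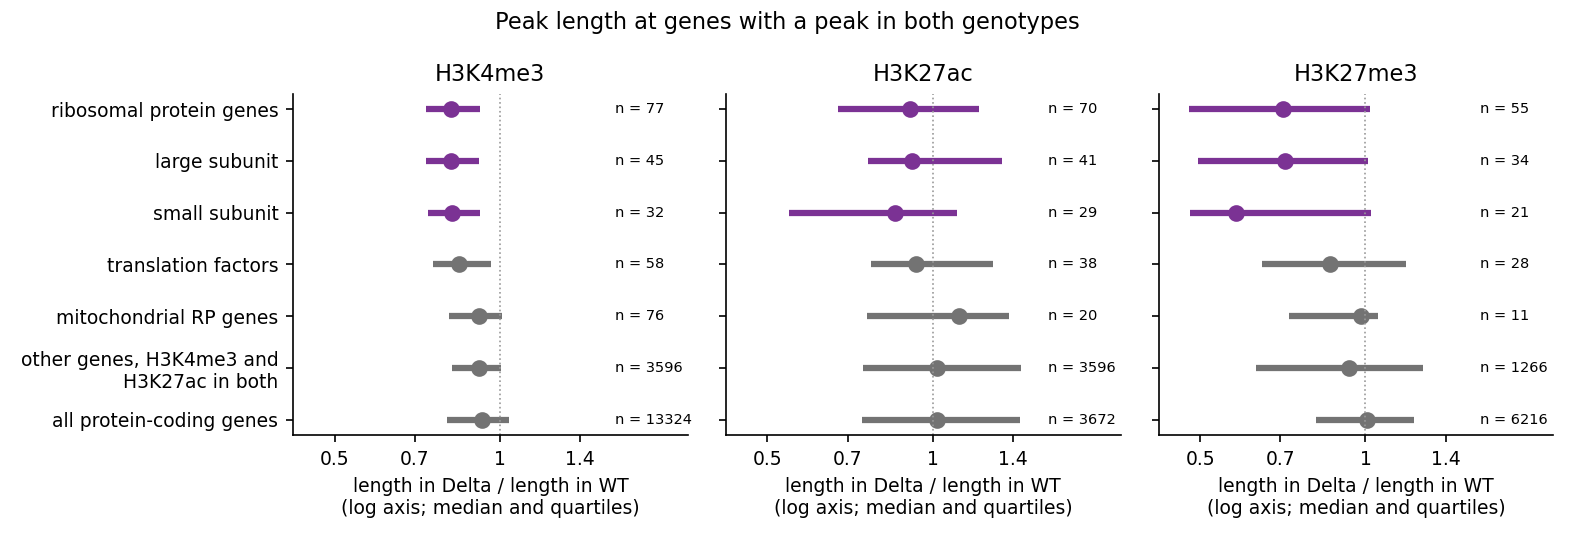
Peak length in Delta divided by that in WT (log axis) for 3 marks, with the median as a point and the quartiles as a bar, for ribosomal protein genes and the 2 subunits (purple) and for other lists (grey), and n the genes with a peak in both. The median of ribosomal protein genes was 0.816 for H3K4me3 and 0.709 for H3K27me3, below all protein-coding genes in both.

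The 3 stalk genes encode the flexible arm that recruits translation factors to the large subunit. Rplp0 had H3K4me3 of 2587 bp in WT and 1892 bp in Delta, with H3K27ac of 230 bp and 196 bp. Rplp1 had H3K4me3 of 2465 bp and 2001 bp, and both its H3K27ac and its H3K27me3 (705 bp) were listed in WT alone. Rplp2 had H3K4me3 of 2034 bp and 1779 bp, with H3K27ac of 606 bp and 610 bp. Rplp0 and Rplp2 had H3K27me3 in Delta alone, so the stalk genes did not share a pattern for that mark.

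The 9 genes on the list for Diamond-Blackfan anaemia all had H3K4me3, H3K27ac and H3K27me3 in both genotypes, as had 53 of all 80 genes. H3K4me3 was shorter in Delta at all 9, with a median ratio of 0.753 and a range from 0.481 at Rps24 to 0.951 at Rps7. Over all 77 marked ribosomal protein genes it was shorter at 69 (89.6%), with a median of 0.816, so shorter H3K4me3 was not particular to these 9. Rps19, the gene most often affected, had H3K27ac of 1080 bp in WT against 535 bp in Delta, with H3K27me3 of 1019 bp and 489 bp. Rps26 kept its H3K27me3 length (619 bp and 620 bp), while its H3K27ac was 0.320 of the WT length. Rps10 had H3K4me3 of 2904 bp and 2103 bp and the same H3K27ac length, 481 bp, in both. Rpl35a had H3K4me3 of 3119 bp and 2194 bp, Rpl11 2251 bp and 1696 bp, and Rpl5 2401 bp and 1991 bp. H3K27me3 had a median ratio of 0.619 over the 9 and was longer in Delta at 3. Without the upstream WT peak of Rpl11 the median was 0.861 and 4 of 9 were longer, so the size of that median rested on 1 peak.

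The 4 genes on chromosome X, Rpl10, Rpl36a, Rpl39 and Rps4x, stood apart from the 76 autosomal ones. All 4 had H3K4me3, with medians of 2706 bp in WT and 2496.5 bp in Delta. None had H3K27ac in WT, and only Rpl36a had it in Delta, whereas 71 and 72 of the 73 autosomal genes with H3K4me3 had it. Rpl10 (609 bp), Rpl39 (920 bp) and Rps4x (425 bp) had H3K27me3 in WT and none of the 4 had it in Delta. H3K27me3 was present at 95 of 419 X-linked genes with H3K4me3 in WT (22.7%) and at 83 of 414 in Delta (20.05%). H3K27ac was present at 28 of the 419 in WT and at 43 of the 414 in Delta, and the H2AK119ub lists held no X-linked peak.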

How the data were processed

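ChIP-Rx was measured in mCherry-positive day 4 EB cells, with 1 library per mark and genotype. Per the study's methods, reads were mapped uniquely with Bowtie to mm9 and dm3, duplicates were removed, and MACS2 2.0.10 called broad peaks library by library, with the genotype's own input as control, without pooling and without the spike-in scaling. The deposited lists hold a score, which was not used, the fold enrichment ratio that the authors' caller computed, and the deposited −log10 p-value and q-value. The largest q-value was 0.0500. The lists hold no read depth, the library totals stated by the study were not used, and inputs were not analysed here.

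From these lists, peaks within 2500 bp of a protein-coding TSS of GENCODE M1 were assigned to genes, and lengths were summed and compared as Delta over WT. With 1 library per group no test was made. Counts have 95% Wilson intervals. Peak assignment recovered all peaks placed in simulated data and differed from bedtools 2.31.1 by 0 genes in 8 lists. Python 3.11.15 was used. RefSeq promoters (GRCm38.p6) were placed on mm9 by exact match. Peaks and promoters have 1-based coordinates. The genes and lists were chosen with earlier results of these data known. Full values are given for the 4 longest and 4 shortest WT H3K4me3 sums, the 4 longest WT H3K27ac sums, the 4 extreme H3K27ac ratios in each direction, H3K4me3 past 1.5-fold, stalk genes, paralogs and Diamond-Blackfan anaemia genes. For H3K27me3, which most genes carried, counts, ranges and examples are given instead. Alternatives changed the TSS distance, the peak threshold, the length measure or the genes counted. Single values of a few genes are not reported here, and counts and medians include them.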

Additional observations from a re-analysis of the deposited data

How the results depend on the processing

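No paired analysis was possible because each mark and genotype had 1 library. Counts of genes with each mark and median length ratios were recomputed under other settings, and all but 4 stayed within 1.5-fold of the count or within the 95% interval of the median. The 4 were counts of genes whose peak had to cover a TSS itself, which fell to 37 in WT and 36 in Delta for H3K27ac and to 22 in WT and 18 in Delta for H3K27me3, as peaks that begin past the start drop out. Some counts could not have moved. Those of H2AK119ub were 0 and no setting widened the search. Leaving out the paralogs or some chromosomes removed too few genes to change a count by 1.5-fold. No median ratio crossed 1. The alternatives without chromosome X and with only peaks that overlap the gene, the RefSeq starts and the list of pseudogene names typed as protein-coding were added after the data were seen. Differences between WT and Delta have no replicate check, and peaks below the q-value limit are not listed.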
